A study of Mus musculus with 6 samples.

Results

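The subject is 10 genes whose transcripts are known from Paneth cells, the antimicrobial secretory cells at the base of small intestinal crypts: Lyz1, Lyz2, Mmp7, Ang4, Pla2g2a, Mptx1, Itln1, Nupr1, Habp2 and Defa3. They were taken by symbol from the probe table of the array and were found in 15 of 34945 probe sets with a single gene symbol, and they make up 10 of 18193 genes measured. Where a gene had several probe sets, the one brightest on average over the 6 arrays, as log2(intensity + 16), stands for it. The arrays were hybridised with total RNA of small intestinal cells sorted for high GFP from Lgr5-EGFP-IRES-creERT2 mice, which carry GFP and a tamoxifen-inducible Cre in the stem cell gene Lgr5. All 6 mice carried this allele. There were 3 mice given vehicle (DMSO) and 3 given DBZ, an inhibitor of gamma-secretase, with cells collected at 24 h. No label states strain, age or sex, and the dose is not used because its unit in the labels appears to lack a prefix. Titles set the groups, since the description field names DMSO on every array.

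Gamma-secretase releases the active part of Notch receptors. In the crypt, Notch signalling keeps stem cells and absorptive progenitors from entering secretory fates by holding down Atoh1, and cells that lose the signal become goblet, endocrine, tuft or Paneth cells. Paneth cells sit between Lgr5 stem cells, feed them with Wnt, EGF and Notch ligands, and fill large granules with lysozyme, alpha-defensins and other bactericidal proteins. Their final maturation depends on Wnt signalling. Lyz1 is the lysozyme of Paneth cells and Lyz2 that of macrophages. Ang4 is a microbicidal ribonuclease of the angiogenin family, Mptx1 a mucosal pentraxin, Itln1 a lectin that binds microbial sugars, and Defa3 an alpha-defensin. Pla2g2a encodes a bactericidal secreted phospholipase, and Mmp7 is the protease that cuts mouse pro-alpha-defensins into their active form. Nupr1 and Habp2 are not antimicrobial products: Nupr1 encodes a small stress-induced nuclear protein, and Habp2 a hyaluronan-binding serine protease best known from plasma.

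Promoter sequences are shown for the pair of neighbouring lysozyme genes and for 3 of the 4 genes furthest from 0 in log2 difference. RefSeq's table for GRCm38.p6 held a start for 8 of the 10 genes and none for Pla2g2a or Defa3. Each sequence below is the 250 bases before the start, 5′ to 3′ in the direction of the gene. In the lysozyme genes the capitals mark the stretch next to the start that is identical in both. In the other 3 genes they mark matches on either strand to CTTTGA, the core bound by TCF factors of the Wnt pathway, or to the TATA box TATAAA.
Lyz1 (chr10:117292869-117293118, minus strand): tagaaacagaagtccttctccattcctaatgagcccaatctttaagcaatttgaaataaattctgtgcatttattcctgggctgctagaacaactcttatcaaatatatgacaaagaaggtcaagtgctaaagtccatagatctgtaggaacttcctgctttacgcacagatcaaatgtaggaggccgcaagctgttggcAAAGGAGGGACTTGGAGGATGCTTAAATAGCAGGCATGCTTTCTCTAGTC
Lyz2 (chr10:117282273-117282522, minus strand): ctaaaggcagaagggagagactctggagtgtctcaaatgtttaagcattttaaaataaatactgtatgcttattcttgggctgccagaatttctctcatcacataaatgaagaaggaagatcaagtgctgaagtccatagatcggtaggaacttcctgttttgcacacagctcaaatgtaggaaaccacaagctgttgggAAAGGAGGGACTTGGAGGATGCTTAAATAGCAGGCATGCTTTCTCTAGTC
Mmp7 (chr9:7691840-7692089, plus strand): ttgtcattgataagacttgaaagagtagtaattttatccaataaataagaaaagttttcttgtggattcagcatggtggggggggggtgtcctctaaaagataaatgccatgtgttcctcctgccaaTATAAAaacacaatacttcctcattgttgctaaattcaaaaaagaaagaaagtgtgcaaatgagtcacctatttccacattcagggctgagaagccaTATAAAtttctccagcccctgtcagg
Ang4 (chr14:51773591-51773840, minus strand): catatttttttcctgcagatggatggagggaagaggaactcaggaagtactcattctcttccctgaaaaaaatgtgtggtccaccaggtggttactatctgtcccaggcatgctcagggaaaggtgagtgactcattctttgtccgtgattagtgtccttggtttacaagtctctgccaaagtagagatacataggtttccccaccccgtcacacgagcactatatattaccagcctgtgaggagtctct
Mptx1 (chr1:174330268-174330517, plus strand): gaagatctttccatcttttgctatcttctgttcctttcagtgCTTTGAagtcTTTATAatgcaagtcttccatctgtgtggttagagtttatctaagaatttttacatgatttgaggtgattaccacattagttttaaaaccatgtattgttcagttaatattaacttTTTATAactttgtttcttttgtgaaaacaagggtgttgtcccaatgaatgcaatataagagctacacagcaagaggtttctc

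Lyz1 and Lyz2 lie next to each other on chromosome 10, at 117287795 to 117292868 and 117277541 to 117282272, with 5522 bases between them. Their upstream sequences aligned with 200 identical bases in 252 columns (79.4%), and the last 50 bases before the start were the same. Mptx1 held 1 CTTTGA, 208 bases before the start, and 2 TATA boxes read on the opposite strand. Mmp7 had 2 TATA boxes, beginning 123 and 26 bases before the start. In Ang4 none of the motifs searched was found in this window. Over 32851 promoters of the same length, 13.8% held CTTTGA and 12.4% TATAAA on either strand. The RBPJ core TGGGAA (21.6% of promoters) was in the Lyz2 and Nupr1 windows and the E-box CAGCTG (13%) in that of Nupr1. A match describes letters in a window and shows no binding.

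Array medians lay between 44.9 and 46.3 intensity units and the brightest probe set of each array between 27330 and 29871, the practical ceiling of the measurement. Over all genes 695 rose and 277 fell with DBZ, 5.34% of those tested (limma, Benjamini-Hochberg adjusted p under 0.05), or 584 and 384 after quantile normalization and 575 and 549 after centring on array medians. The treatment check Olfm4, a stem cell gene that needs Notch, was at 3627, 4234 and 5177 in vehicle and at 35.9, 18.6 and 29.9 in DBZ arrays. Lgr5, whose GFP served for the sort, lay between 204 and 271 in vehicle and between 209 and 242 in DBZ arrays. The fraction thus held its defining marker in both groups, which does not measure its purity. The brightest probe sets were those of Lyz1, Zg16 and the immunoglobulin gene Igha in vehicle replicates 1, 2 and 3. In DBZ replicate 1 it was Igha, and in replicates 2 and 3 Tff3. The actin control probes, which compare the 3′ with the 5′ end of the transcript and so reflect RNA integrity, had ratios from 1.61 to 2.22 in vehicle and from 1.51 to 1.57 in DBZ arrays, without overlap. The same ratio for Gapdh was 1.07 to 1.42 against 1.05 to 1.09, overlapping. Their part in the results below was not tested. Each array measured all sorted cells together, so fewer Paneth cells and less RNA per Paneth cell cannot be told apart in any value given here.

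Of the 10 genes, 2 rose with DBZ and 0 fell by the test over all genes. Mmp7 and Pla2g2a were higher, Ang4 and Mptx1 were far lower in every DBZ array without passing the test, and the other 6 lay between. The share of all genes called was 3.82% higher and 1.52% lower (limma, adjusted p under 0.05). At an unadjusted p under 0.05 there were 4 of the 10, against 26.3% of all genes (limma). The groups did not overlap for 2 genes upwards and 3 downwards, with Lyz1 the third of the latter, against 17.3% and 15.8% of all genes. The fitted difference was below 0 for 5 of the 10 and for 54.6% of all genes. Calls over all genes depended on the arrays: without vehicle replicate 1, 2 or 3 the share called higher was 0.231%, 0.0879% and 0.187%, without DBZ replicate 2 or 3 it was 0.945% and 1.53%, and without DBZ replicate 1 it was 7.17%, with 4% lower.

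**Figure D1:**
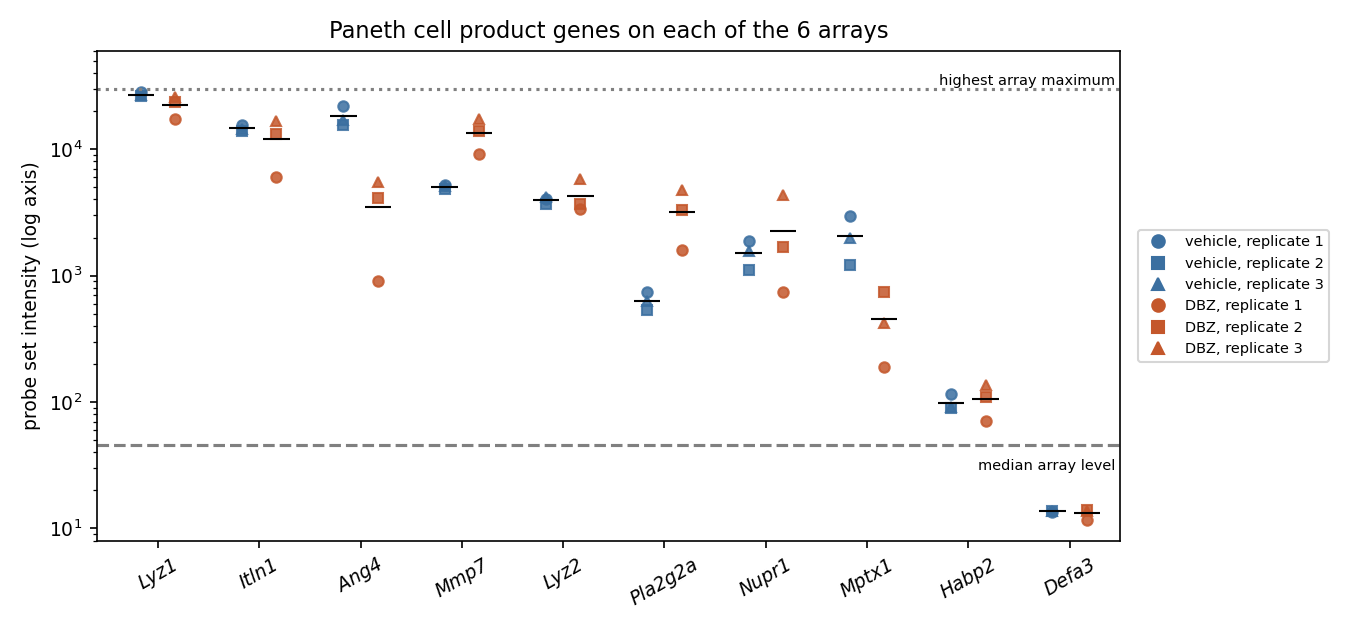
Probe set intensity on a log axis for the 10 genes, with 3 vehicle (blue) and 3 DBZ (orange) arrays, a marker shape for each replicate number, and black bars at group means. Dotted and dashed lines mark the highest array maximum and the median array level. Mmp7 and Pla2g2a lie higher and Ang4 and Mptx1 lower in all DBZ arrays, while Lyz1 lies close to the ceiling and Defa3 below the median.

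Mmp7, the activator of defensins, was at 5209, 4866 and 5101 intensity units in vehicle replicates 1, 2 and 3 and at 9120, 13978 and 17466 in DBZ replicates 1, 2 and 3. The vehicle arrays were nearly equal and every DBZ array lay above them. Means were 5058 ± 176 and 13521 ± 4192 (SD, n = 3), a log2 difference of 1.37 ± 0.23 (SE; limma, Benjamini-Hochberg adjusted p = 0.034), or 2.58-fold. It ranked 161 from the top among 18193 genes by log2 difference. The gene lies on chromosome 9 at 7692090 to 7699585 and has 1 probe set. Leaving out vehicle replicate 1, 2 or 3 or DBZ replicate 2 ended the call (limma, adjusted p = 0.106, 0.117, 0.112 and 0.0863), with log2 differences of 1.32 to 1.39. Without DBZ replicate 1 the difference was 1.62 (limma, adjusted p = 0.0057).

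Pla2g2a was at 736, 533 and 631 in vehicle and at 1588, 3271 and 4743 in DBZ replicates 1, 2 and 3. The groups did not overlap, and the lowest DBZ array was more than 2-fold above the highest vehicle array. Means were 633 ± 102 and 3200 ± 1579 (SD, n = 3), a log2 difference of 2.18 ± 0.39 (SE; limma, adjusted p = 0.038), or 4.55-fold. Its rise ranked 28 among all genes. Its place is chromosome 4 at 138831857 to 138835189, where the C57BL/6J reference lists it as a transcribed pseudogene, and a frameshift in several laboratory strains is textbook knowledge. With the strain unstated, the arrays show transcript and say nothing of enzyme. The call ended without vehicle replicate 1, 2 or 3 and without DBZ replicate 2 or 3 (limma, adjusted p = 0.107, 0.124, 0.122, 0.0971 and 0.057). Without DBZ replicate 1 it stood at 2.62 (limma, adjusted p = 0.0066).

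Ang4 showed the opposite. It was at 21936, 15383 and 17089 in vehicle and at 902, 4124 and 5511 in DBZ replicates 1, 2 and 3. Every DBZ array lay below every vehicle array, and DBZ replicate 1 stood far below the other two. The mean went from 18136 ± 3399 to 3512 ± 2365 (SD, n = 3), a log2 difference of -2.70 ± 0.66 (SE; 95% interval -4.30 to -1.11), the 6th lowest of 18193 genes. It did not pass the test over all genes (limma, adjusted p = 0.068). A second probe set gave 9083, 6946 and 8282 in vehicle and 448, 1598 and 2435 in DBZ arrays, a log2 difference of -2.72 ± 0.59 (SE, n = 3). That probe set lacks the _x_at suffix, which the array maker gives to probe sets that can bind other transcripts. Without DBZ replicate 1 the difference was smaller, -1.91 ± 0.20, and passed (SE; limma, adjusted p = 0.0098). The gene lies on chromosome 14 at 51763892 to 51773590.

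Mptx1 was at 2969, 1205 and 1983 in vehicle and at 188, 738 and 425 in DBZ arrays. The groups did not overlap, although the vehicle arrays themselves differed more than 2-fold. Means were 2052 ± 884 and 450 ± 275 (SD, n = 3), a log2 difference of -2.25 ± 0.53 (SE; 95% interval -3.54 to -0.95; limma, adjusted p = 0.065), the 17th lowest of all genes. It lies on chromosome 1 at 174330518 to 174332877. Leaving out single arrays gave -2.69 to -1.75, and none of the 6 fits passed (limma, adjusted p 0.059 to 0.172). Other settings brought Ang4 and Mptx1 past the threshold together: a pseudocount of 1 (limma, adjusted p = 0.043 and 0.042), testing only genes above the median (0.034 and 0.033) and array weights (0.028 and 0.046). Both stayed short of it with a pseudocount of 64 (limma, adjusted p = 0.098 and 0.092) and the replicate block (0.087 and 0.114). Ordinary t statistics gave adjusted p = 0.210 and 0.207. Of 17 alternatives Ang4 passed in 4 and Mptx1 in 3.

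Lyz1 was at 28128, 26243 and 26767 in vehicle and 17338, 23422 and 25912 in DBZ arrays. The lowest vehicle and the highest DBZ array nearly met, and DBZ replicate 1 accounted for the widest gap. The difference was -0.30 ± 0.15 on the log2 scale (SE; 95% interval -0.67 to 0.06; limma, adjusted p = 0.26). In vehicle arrays the probe set stood at 96% to 100% of the array maximum and ranked 1st or 2nd of 45101, against 58.2%, 78.4% and 87.3% in DBZ replicates 1, 2 and 3. A probe set of a Paneth cell transcript was thus among the brightest of all in cells sorted for a stem cell reporter. It has the _x_at suffix, so other transcripts may add to its signal, which was not tested. Changes this close to the ceiling can be compressed, which was not tested here. A second bright probe set, also with the _x_at suffix, was at -0.38 ± 0.21 (SE, n = 3) and its groups overlapped. The remaining one, without this suffix, read 52.8 to 62.5 in vehicle and 33.7, 45.1 and 57.7 in DBZ arrays, near the array median, at -0.28 ± 0.15. All 3 were lowest in DBZ replicate 1.

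Lyz2 was at 4008, 3695 and 4170 in vehicle and 3358, 3648 and 5752 in DBZ arrays. DBZ replicates 1 and 2 lay below the vehicle arrays and replicate 3 above them. The log2 difference was 0.06 with a 95% interval of -0.43 to 0.56 (limma, adjusted p = 0.88). It was 11.3% to 19.4% of the array maximum, far from the ceiling. Macrophage genes, the other known source of Lyz2, had 0 of 17 past the test (limma), with a median log2 difference of 0.65, 14 of 17 above 0 and 7 with DBZ arrays apart and higher. Over all genes, 54.6% were below 0 and 17.3% were apart and higher. Their summed intensity was 5398 to 7196 in vehicle and 8994, 5963 and 11114 in DBZ replicates 1, 2 and 3, and the brightest genes, Csf1r and Ptprc, were at 1667 ± 392 and 892 ± 202 in vehicle and 1314 ± 313 and 799 ± 195 in DBZ arrays (SD, n = 3), with overlapping groups. The sum was highest in DBZ replicate 3, as was Lyz2, and its part in the Lyz2 values was not tested.

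Itln1 was at 15416, 13819 and 14540 in vehicle and 6010, 13167 and 16785 in DBZ arrays. Only DBZ replicate 1 stood far from the vehicle arrays, and replicate 3 was the highest of the 6. Itln1 stood at 50.6% to 54.8% of the array maximum in vehicle arrays. The log2 difference was -0.41 with a 95% interval of -1.29 to 0.48 (limma, adjusted p = 0.53). It was 0.03 without DBZ replicate 1, so that array sets its sign. Nupr1 was at 1877, 1111 and 1556 in vehicle and 737, 1683 and 4326 in DBZ arrays, which thus held both its lowest and its highest value. Its log2 difference of 0.24 had a 95% interval of -1.25 to 1.73 (limma, adjusted p = 0.84), and its second probe set was at 0.30. Without DBZ replicate 3 it was -0.40, and without DBZ replicate 1 it was 0.86. Itln1 lies on chromosome 1 at 171518123 to 171535325 and Nupr1 on chromosome 7 at 126623246 to 126625470.

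Habp2 and Defa3 were dim. Habp2 was at 115, 90.2 and 91 in vehicle and 70.5, 110 and 137 in DBZ arrays, at 0.06 with a 95% interval of -0.47 to 0.58 (limma, adjusted p = 0.90), and lies on chromosome 19 at 56287109 to 56320820. A second probe set, at 23 to 27.1 and 14.9 to 34.8, was below the median of every array. Defa3 read 13.5 to 13.7 in vehicle and 11.7, 14.1 and 13.7 in DBZ arrays, under the 16th percentile of each array, so its difference of -0.02 carries no information on the alpha-defensins.

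Because Defa3 was dim, the alpha-defensin family was looked up after values had been seen. The probe table named such a gene on 5 probe sets. Defa39 was at 25078, 20247 and 21955 in vehicle and 3855, 14157 and 20467 in DBZ arrays, at -1.10 ± 0.59 (SE; limma, adjusted p = 0.30), with the groups overlapping in DBZ replicate 3 alone. Defa31 was at 99.8, 56.6 and 74.1 in vehicle and 37.7, 50.6 and 44.6 in DBZ arrays, at low intensity. The probe sets of Defa39 and Defa31 have the _x_at suffix and so may not read these genes alone. A probe set that names 2 alpha-defensins, and so no single gene, was at 23178, 21603 and 22080 in vehicle and 3072, 4781 and 9702 in DBZ arrays, a log2 difference of -2.09 with the groups apart. Another that also names 2 of them was at 20771, 19981 and 21852 against 12141, 18140 and 20412, at -0.34. Defa39 stood at 74.1% to 89.2% of the array maximum in vehicle arrays. The limit set by the ceiling may thus apply to the bright defensin probe sets as well as to Lyz1, which was not tested. The family therefore had bright signal on 3 of 5 probe sets, all lowest in DBZ replicate 1.

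**Figure D2:**
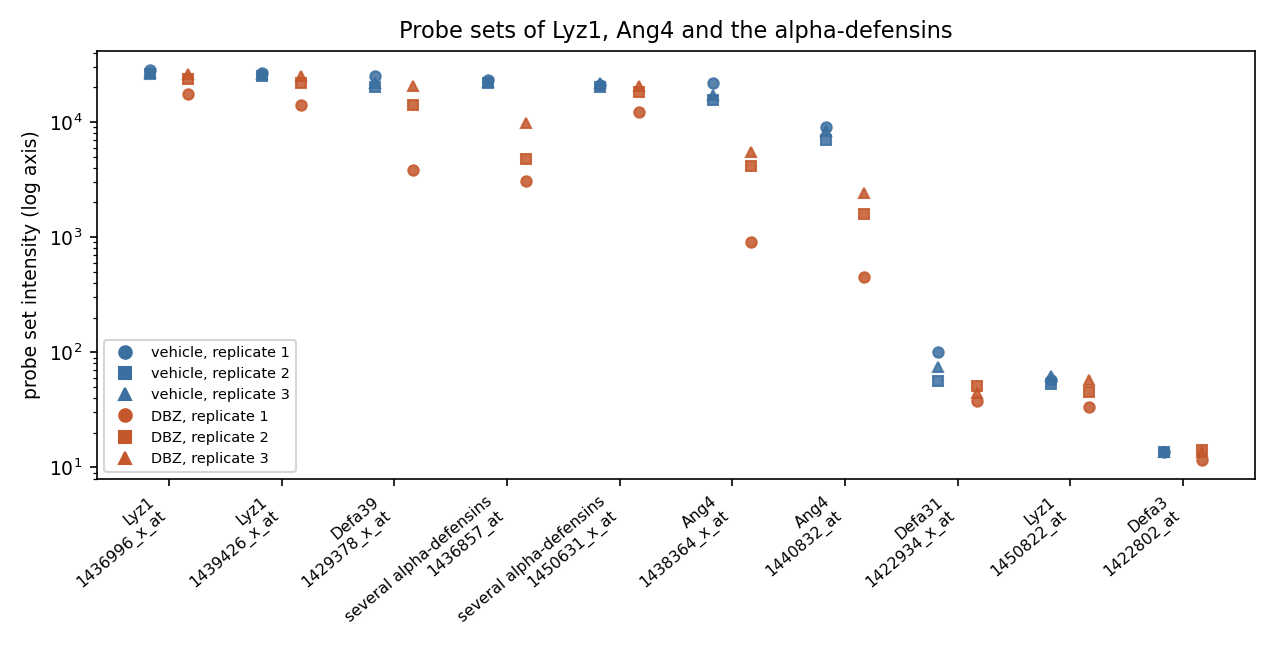
Intensity on a log axis for every probe set of Lyz1, Ang4 and the alpha-defensins, ordered by vehicle mean, with vehicle (blue) and DBZ (orange) arrays and a marker shape for each replicate number. Both Ang4 probe sets and 1 bright defensin probe set lie far below vehicle in all DBZ arrays. The bright Lyz1 probe sets and the other bright defensin probe sets are lowest in DBZ replicate 1 and meet or nearly meet vehicle in replicate 3.

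One DBZ array lay lowest throughout. DBZ replicate 1 was the lowest of the 3 DBZ arrays for 10 of 10 genes, against 33.3% of all genes (26.7% for replicate 2 and 40% for replicate 3), and the lowest of all 6 arrays for 8, against 12.4%. The standard deviation of log2 values was larger over the DBZ than over the vehicle arrays for 10 of 10, against 51.7%. All these counts include Defa3, whose signal was too dim to be informative. Ang4 had SDs of 0.26 and 1.39, Nupr1 of 0.38 and 1.26, Itln1 of 0.08 and 0.77 and Mmp7 of 0.05 and 0.48 in vehicle and DBZ arrays. Relative to the vehicle mean, DBZ replicates 1, 2 and 3 were at -4.29, -2.12 and -1.70 for Ang4 and at 0.85, 1.46 and 1.79 for Mmp7 on the log2 scale. The array furthest below vehicle for Ang4 was thus the one least above it for Mmp7. The other lists differed in this. DBZ replicate 1 was the lowest DBZ array for 7 of 15 other Paneth cell genes, 12 of 14 genes of Paneth specification and granule handling, 10 of 15 ATF4 genes and 10 of 11 goblet genes. For fibroblast and smooth muscle genes it was 5 of 15, for enterocyte genes 4 of 14, for macrophage genes 2 of 17, for neutrophil genes 1 of 11, for adipocyte genes 1 of 7 and for mesothelium genes 0 of 11. Among relatives of the 10 genes it was 4 of 5 for lysozymes, 4 of 8 for RNases, 3 of 11 for phospholipases, 2 of 6 for pentraxins and 6 of 19 for metalloproteinases.

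**Figure D3:**
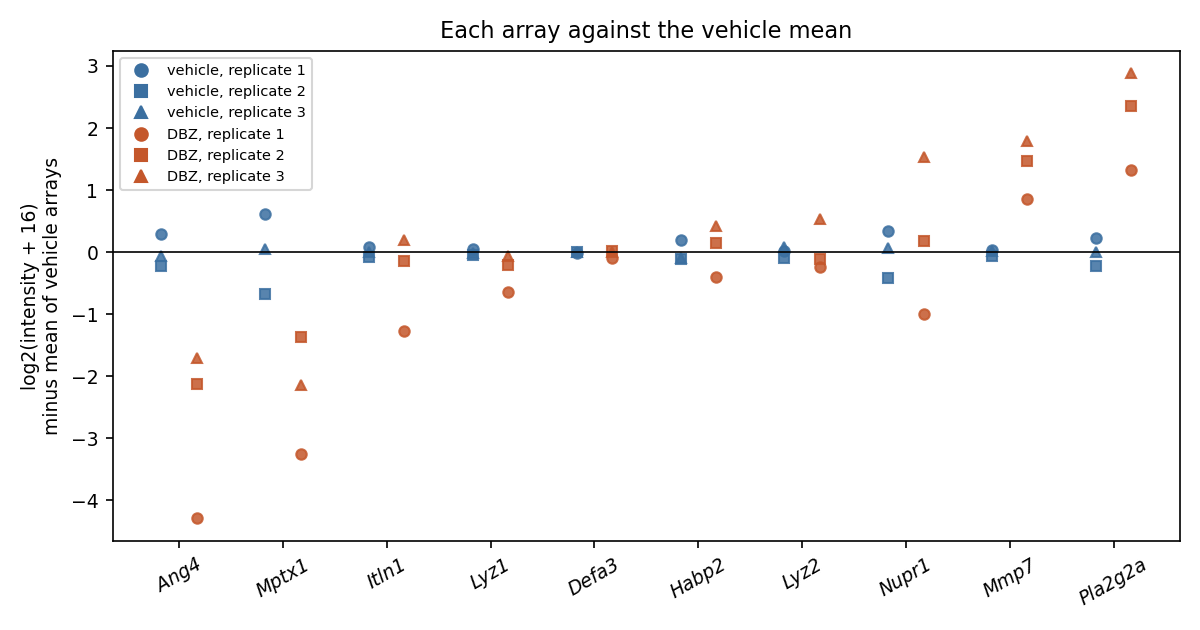
Log2(intensity + 16) of each array minus the mean of the 3 vehicle arrays, for the 10 genes in order of their mean difference, with a marker shape for each replicate number. DBZ replicate 1 is the lowest DBZ point for every gene, from -4.29 for Ang4 to 1.32 for Pla2g2a.

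Differences between genes within an array remove what all genes of that array share. Of 45 pairs of the 10 genes, 33 had DBZ and vehicle arrays apart and 12 overlapped, against 37.8% apart over all pairs of the 18193 genes. An exact permutation test (two-sided, 3 against 3 arrays) cannot go below p = 0.1, which is what these pairs gave, and after adjustment over the 45 pairs p = 0.14. Mmp7 minus Ang4 was -2.07, -1.66 and -1.74 in vehicle and 3.32, 1.76 and 1.66 in DBZ arrays, a shift of 4.07 ± 0.55 on the log2 scale (SE, n = 3). For Pla2g2a minus Mptx1 the shift was 4.43 ± 0.45. Mmp7 minus Lyz1 was -2.43, -2.43 and -2.39 in vehicle and -0.93, -0.74 and -0.57 in DBZ arrays. This shift of 1.67 ± 0.10 had a small spread. Lyz1 was near the ceiling in vehicle, which can itself reduce spread, and this was not tested. These pairs describe genes that were chosen with their divergence known and are no independent evidence of it.

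The pair of lower genes, the pair of higher genes and the lysozyme pair had smaller shifts. Mptx1 minus Ang4 was -2.88, -3.66 and -3.10 in vehicle and -2.17, -2.46 and -3.65 in DBZ arrays, overlapping, with a shift of 0.45 ± 0.51 (SE, n = 3; exact permutation p = 0.4). Pla2g2a minus Mmp7 shifted by 0.82 ± 0.21 with the groups apart. Lyz2 minus Lyz1 was -2.81, -2.82 and -2.68 in vehicle and -2.36, -2.68 and -2.17 in DBZ arrays, a shift of 0.37 ± 0.16. The groups were barely apart, at -2.678 in vehicle replicate 3 and -2.677 in DBZ replicate 2. The test could not show an unequal response of the neighbouring lysozyme genes, since it was at its lowest possible value (exact permutation p = 0.1, adjusted over the pairs 0.14). The closeness of Lyz1 to the ceiling, and a Lyz1 probe set that can bind other transcripts, leave the true size of the shift unknown.

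**Figure D4:**
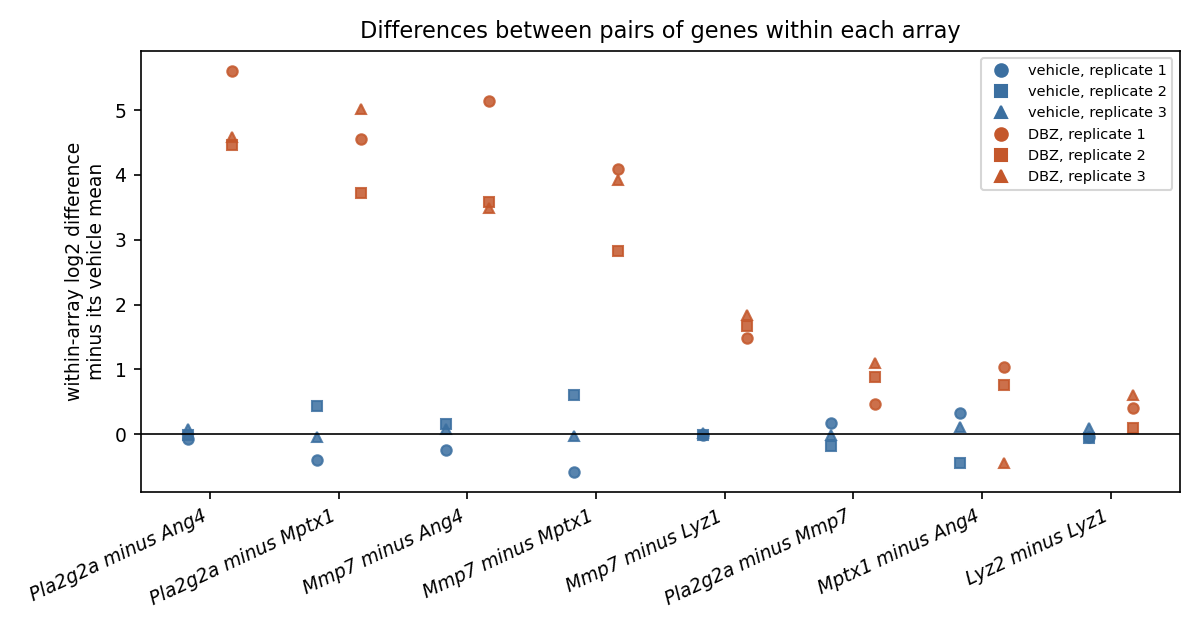
Log2 difference between 2 genes within each array, minus its mean over the vehicle arrays, for 8 pairs, with vehicle (blue) and DBZ (orange) arrays and a marker shape for each replicate number. The 4 pairs of a higher with a lower gene shift by about 3.61 to 4.89, while the DBZ points of Mptx1 minus Ang4 overlap those of vehicle.

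By the rule of smallest mean absolute difference of centred log2 values over the 6 arrays, among 8915 genes above the median, Clps was nearest to Ang4 (0.21). Clps encodes colipase. It was at 2605, 1793 and 1683 in vehicle and 144, 594 and 714 in DBZ arrays, at -2.27 ± 0.58 (SE; limma, adjusted p = 0.074). Pnliprp2, a lipase of the pancreatic family, was nearest to Mptx1 (0.30) and second for Ang4 (0.47). It was at 2860, 3579 and 3158 against 299, 1128 and 712, and fell by 2.32 on the log2 scale (limma, adjusted p = 0.046). Next to Ang4 came Cklf, Nt5e and Fbp1 at 0.75 to 0.76, and next to Mptx1 Clps, Defa39, Mcm5 and Hells at 0.41 to 0.59. Mmp7 had much closer neighbours, Slc25a35, D17H6S56E-5, Rcn1, Tmem263 and Qsox1, at 0.06 to 0.09. Those of Pla2g2a were B3gnt5, Fkbp11, Pla2g10, Slc12a8 and Fxyd3, at 0.13 to 0.22. Of these neighbours Clps, Cklf, Defa39, Mcm5 and Tmem263 did not pass the test between groups (limma), and the others did. The neighbours were chosen over the same 6 arrays. A group difference in the direction of their member therefore follows from the choice and is no separate evidence.

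Among 15 measured of 31 other Paneth cell genes listed, 2 rose and 2 fell (limma, adjusted p under 0.05), with a median log2 difference of 0.00 against -0.02 over all genes. The shares of all genes that rose and fell were 3.82% and 1.52%. Cd24a, a surface protein used to sort Paneth cells, was at 6580, 6523 and 6050 in vehicle and 10299, 13437 and 13494 in DBZ arrays, and rose by 0.95 ± 0.12 (SE; limma, adjusted p = 0.024). Wnt3, a niche ligand, also rose, from 9.82 ± 0.48 to 22.4 ± 1.47 (SD, n = 3), both below the array median. The lower genes were Pnliprp2 and the potassium channel gene Kcnn4, from 837 ± 122 to 375 ± 96.7. Leaving out single arrays gave 0 to 7 calls in this list, with 0 without any 1 vehicle array and 7 without DBZ replicate 1.

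Among 14 regulators of Paneth specification and genes of granule handling, 5 rose, 1 fell and 8 did not pass (limma, adjusted p under 0.05), with a median log2 difference of 0.40. Of all genes 3.82% rose and 1.52% fell. Single arrays left out gave 2 to 7 calls, with 2 or 3 without a vehicle array or DBZ replicate 2 and 7 without DBZ replicate 1. Gfi1, which directs secretory progenitors to goblet and Paneth fates, was at 84.9, 88.7 and 82.7 in vehicle and 364, 442 and 526 in DBZ arrays. Bhlha15, which builds up secretory capacity, was at 305, 226 and 244 against 945, 973 and 1148. Spdef and Atoh1 rose as well, by 1.78 ± 0.23 and 1.90 ± 0.16 (SE, n = 3). Fzd5 and Sox9 fell outside the naming rule and were chosen after their values were seen. Fzd5 was the lower gene: this Wnt receptor, needed for Paneth maturation, went from 1730 ± 171 to 782 ± 190 (SD, n = 3; limma, adjusted p = 0.034). Sox9, the Paneth factor induced by Wnt and the other gene of the 5, went from 191 ± 2.37 to 327 ± 44.9.

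Called relatives of the 10 genes were all higher, where 3.82% of all genes were called higher and 1.52% lower. Of 8 measured angiogenin and RNase relatives 2 rose and 0 fell (limma, adjusted p under 0.05). Rnase4 was at 3622, 4245 and 4354 in vehicle and 6460, 7144 and 7466 in DBZ arrays, up by 0.79 ± 0.10 (SE), and Rnase1 went from 195 ± 42.6 to 1459 ± 1027 (SD, n = 3; limma, adjusted p = 0.0499). Of 11 secreted phospholipase relatives 2 rose, Pla2g12a and Pla2g10. Pla2g10 was at 386, 410 and 366 against 910, 1512 and 2098, up by 1.84 ± 0.28 (SE; limma, adjusted p = 0.031). Pentraxin relatives gave 1 of 6, Ptx3, which rose from 19.5 ± 1.79 to 108 ± 41 (SD, n = 3). Matrix metalloproteinases and their inhibitors gave 2 of 19, Timp1 and Mmp3, and lysozyme relatives 0 of 5 (limma), all of them below the median gene. The stress genes downstream of ATF4, among which Nupr1 is counted, gave 2 of 15 higher, Ddit3 at 0.33 ± 0.065 and Vldlr at 1.15 ± 0.23 (SE). Leaving out single arrays gave 0 to 3 calls for the RNase list, 0 to 2 for the phospholipases, 0 to 1 for the pentraxins, 0 to 5 for the metalloproteinases and 0 to 3 for the ATF4 list. Each was at 0 with any 1 vehicle array left out and at its highest without DBZ replicate 1. After quantile normalization the ATF4 list had 0 calls and the RNase list 1 (limma).

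Genes of other cell types were measured in the same arrays, and some rose with DBZ, as did 3.82% of all genes, with 1.52% lower (limma). Fibroblast and smooth muscle genes gave 9 of 15 higher (limma), with summed intensity between 22758 and 32452 in vehicle and between 48447 and 56062 in DBZ arrays, and Acta2 and Tagln as the brightest. Adipocyte genes gave 4 of 7 higher, with sums of 2177 to 4819 and 11279 to 26866 and Car3 and Fabp4 as the brightest. Neutrophil genes gave 2 of 11, S100a8 and S100a9, with sums of 347 to 471 and 903 to 5691. S100a8 and S100a9 averaged 19.3 and 20.0 in vehicle and 1513 and 1416 in DBZ arrays, and made up most of each DBZ sum. The median log2 difference of the 11 was 0.03, with 6 above 0, and only 2 lay above the median gene. Mesothelium genes gave 1 of 11, with sums of 540 to 588 and 743 to 1833, and 2 of the 11, Upk1b and Aldh1a2, were above the median gene. Goblet genes, which share secretory origin with Paneth cells, gave 3 of 11 higher, with sums of 113606 to 123858 and 141661 to 179795. Enterocyte genes gave 0 of 14 (limma), with sums of 94808 to 99238 and 69955 to 94494. Without any 1 vehicle array these lists, macrophage included, gave 0 calls, except 3 fibroblast and smooth muscle genes without vehicle replicate 3. Without DBZ replicate 1 the goblet count was 6 and the enterocyte count 2, and without DBZ replicate 2 the mesothelium count was 8. Their part in the values of the 10 genes was not tested.

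**Figure D5:**
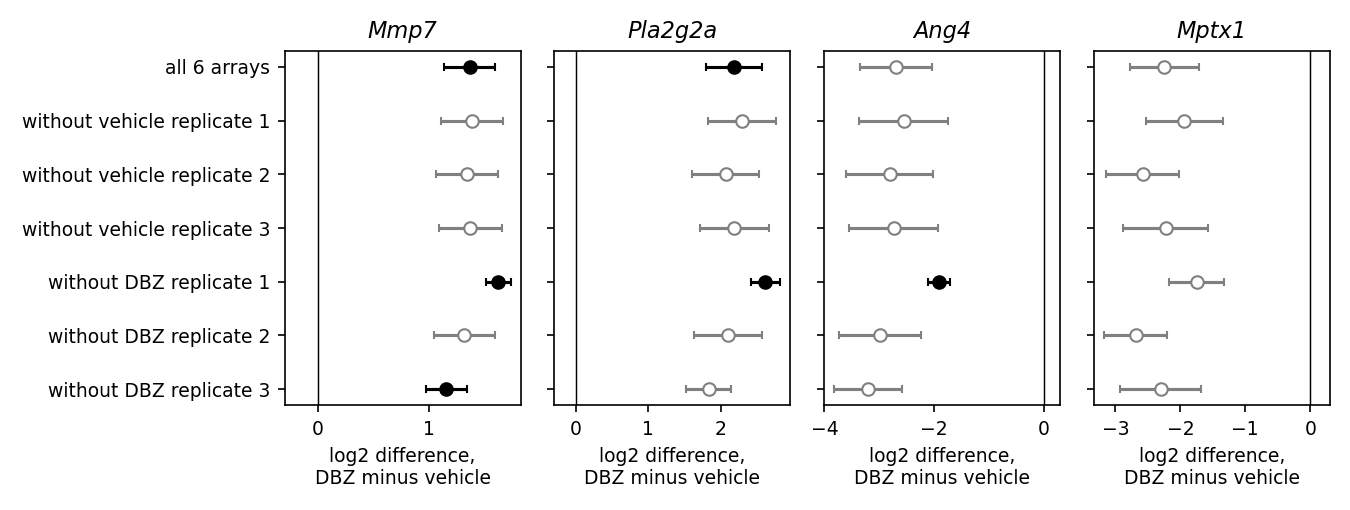
Log2 difference, DBZ minus vehicle, with its standard error for 4 genes, from all 6 arrays and with each array left out in turn; filled points passed the test over all genes (limma, adjusted p under 0.05) and open points did not. All points keep the sign of their gene, and the fit without DBZ replicate 1 has the smallest error in each panel, with Mptx1 still open.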

How the data were processed

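Total RNA of the sorted cells was labelled and hybridised to Affymetrix mouse arrays. The authors deposited linear intensity values per probe set, and the software and normalization behind them are unstated in these sources. Names came from GEO's platform annotation (45101 probe sets, 64 of them controls: 34945 with 1 symbol, 932 with several, 9160 with none). The RefSeq gene table (GRCm38.p6) held 34741 of the single-symbol identifiers and changed 0 symbols.

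Values were tested as log2(intensity + 16), which understates changes of dim genes, in 1 limma fit of 18193 genes on 6 arrays (limma 3.58.1, R 4.3.3, lmFit and eBayes, two-sided). Adjusted p-values follow Benjamini-Hochberg over every gene, with calls under 0.05. SE is limma's for a gene and the unpooled one for a pair. On simulated arrays with 200 shifted genes the fit recovered 69% of log2 shifts of 1 and 93% of shifts of 2, with 5.26% of calls false. The simulated noise was equal in both groups. It therefore does not test the fit under the larger DBZ spread seen for all 10 genes. The number of arrays limits the precision. Titles give each sample its own mouse.

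The main fit did not use the replicate numbers as pairs. Residuals of same-numbered arrays correlated at -0.01, 0.25 and 0.20 across genes, and those of differently numbered arrays at -0.29 to 0.01. Whether the numbers mark shared handling was not tested. Members and lists were chosen with earlier results of these data known. The text names all 10 genes, up to 4 called genes per list or 2 by smallest p where none was called (the 2 brightest for other cell types) and the 5 nearest in pattern to 4 members, with Olfm4, Atoh1 and Lgr5 as checks. Alternatives were quantile normalization, centring, pseudocounts of 1 and 64, genes above the median, other probe set choices, other variance models, array weights, a replicate block and each array left out.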

Additional observations from a re-analysis of the deposited data

How the results depend on the processing

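The count of genes changed by DBZ depended on the setting. It was 549 lower after centring on array medians, 310 higher and 130 lower with a pseudocount of 64, and 1660 higher and 1030 lower with array weights. With ordinary t statistics 0 genes passed in either direction, while 3731 had an unadjusted p under 0.05 and limma's moderated test called 972. Leaving out single arrays gave 16 to 1305 genes higher and 3 to 727 lower, lowest without vehicle replicate 2 and highest without DBZ replicate 1. Of the 10 Paneth genes, 2 were higher in the report; 0 were with a pseudocount of 64 or with ordinary t statistics, which had 4 at an unadjusted p under 0.05, and 0 to 2 with single arrays left out. With the replicate block 1 was higher, Mmp7, since Pla2g2a missed the threshold (limma, adjusted p = 0.055); the block changed no other call among the 10 and gave 672 genes higher and 217 lower overall. None was lower in the report; 2 were, Ang4 and Mptx1, with a pseudocount of 1, with genes above the median only and with array weights, and 0 to 1 with single arrays left out. Across 17 alternatives each, the signs of Mmp7, Pla2g2a, Ang4, Mptx1 and Lyz1 never changed, with Mmp7 at 1.16 to 1.62, Pla2g2a at 1.83 to 2.62, Ang4 at -3.20 to -1.91, Mptx1 at -2.69 to -1.75 and Lyz1 at -0.42 to -0.13. Mmp7 passed in 11, Pla2g2a in 9, Ang4 in 4 and Mptx1 in 3 of them. Pairs of genes with groups apart numbered 31 to 37. Where calls moved, the cause was not tested.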
